A study of Mus musculus with 15 samples.

Results

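The cells described here were testis barcodes that carried messages of late haploid germ cells, which are packing their chromatin into a sperm head, together with messages of Sertoli cells, the somatic nurse cells of the seminiferous tubule. A kept barcode had at least 500 genes, at least 1000 UMIs (unique molecular identifiers, 1 for each captured RNA molecule) and under 30% of its UMIs from mitochondrial genes. A kept barcode was counted as a member when it held at least 3 of the 7 Sertoli genes Aard, Tsx, Defb19, Defb36, Rhox8, Etd and 1700011M02Rik and at least 10% of its UMIs came from Prm1, Prm2, Tnp1 and Tnp2. The rule found 2145 members among 76494 kept barcodes, which is 2.80% of all. They are the overlap of 6218 barcodes with at least 3 of the 7 Sertoli genes (Sertoli-marker cells) and 27842 barcodes with at least 10% of UMIs from the 4 sperm genes (late haploid cells). These 11 genes chose the members, so their values in the members are a description. A droplet that took up a germ cell and a nurse cell, a germ cell with Sertoli RNA attached or inside, and free Sertoli RNA cannot be told apart from these counts.

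The libraries were droplet 3′ single-cell RNA-seq of whole dissociated testis from DBA/2J mice, with 3 libraries in each of 5 groups and 1 mouse in each library. Treated males (T) received (+)-JQ1, an inhibitor of the BET bromodomain proteins that include the testis-specific BRDT, at 50 mg/kg by daily intraperitoneal injection for 3 wk and were taken at 10 wk of age, beside vehicle males of the same age (VC-T). Recovery males (R) had the same course and were taken 6 wk after the last dose at 16 wk of age, beside vehicle males (VC-R). Untreated males (UC) were 15 wk old, so age and treatment cannot be told apart where T, R or the vehicle groups are set against UC. The drug was given to the whole animal. P-values measure the spread between these mice. The libraries held 2569 to 13471 kept barcodes each.

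Sertoli cells span the tubule wall, hold each spermatid in a pocket of cytoplasm through a specialised junction, and form the blood-testis barrier with their neighbours. At sperm release they take up and digest the residual body, the bag of cytoplasm that a spermatid sheds, and they also engulf germ cells that die. In late spermatids, transition proteins (Tnp1, Tnp2) displace histones and are then displaced by protamines (Prm1, Prm2), and transcription stops, so that their RNA pool is stored message. BRDT is needed for germ cells to switch from the meiotic to the post-meiotic programme, and inhibiting it with JQ1 blocks sperm production reversibly.

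The 7 Sertoli genes were unevenly seen in the members. In mouse GRCm38 (mm10) they lay on chromosome X for 4 of 7, with Tsx at chrX:103414467-103424580, Rhox8 at chrX:37874778-37878944, Etd at chrX:53434918-53443576 and 1700011M02Rik at chrX:102908905-102909651. Defb19 and Defb36, genes of the beta-defensin family, lay near each other at chr2:152576086-152580312 and chr2:152604327-152612729, and Aard lay at chr15:52040107-52045722. The annotation placed another locus over Tsx and over Defb36, so their counts may hold reads of both. Of the sperm genes, Prm1, Prm2 and Tnp2 lay in 1 cluster on chromosome 16 and Tnp1 on chromosome 1. Defb19 was found in 95.4% of the members, Aard in 76.2%, Defb36 in 62.5%, 1700011M02Rik in 55.6%, Tsx in 55.2%, Rhox8 in 51.1% and Etd in 50.3%. Prm1 and Prm2 were found in 100% of members and Tnp1 in 99.3%. The membership rested on few molecules: a member held a median of 8 UMIs of the 7 Sertoli genes (middle range 5 to 15, highest 237) among a median of 6397 UMIs in all. Of the members, 720 held exactly 3 of the 7 genes, 511 held exactly 4, 914 held 5 or more and 257 held all 7, and 1225 had at least 20% of UMIs from the 4 sperm genes.

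The makeup of the 7-gene UMIs is given as shares with no test. Defb19 made up a median of 45.9% of the 7-gene UMIs of members over 11 libraries (40.0% to 54.3%). It made up 44.8% in Sertoli-marker cells with under 5% of UMIs from the sperm genes (low-sperm Sertoli-marker cells). In spermatocyte-marker cells, defined by at least 3 of 7 spermatocyte genes with under 5% of sperm genes, it made up 50.2%. Aard made up 15.9%, 18.2% and 17.0% in the same order, Defb36 10.04%, 7.26% and 7.53%, and Rhox8 5.53%, 7.83% and 6.35%. Defb19 led in all these sets, while Defb36 took a larger share and Rhox8 a smaller one in members. The 11 libraries in these comparisons had at least 10 members, which left out the 3 T libraries and VC-T 1.

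The label was checked on genes that the rule did not use. A list of 19 other Sertoli genes summed to a median of 886 counts per 1000000 UMIs of the set (CPM) in members, against 22.0 in late haploid cells of the same libraries with none of the 7 genes and 7205 in low-sperm Sertoli-marker cells. All these comparisons between cell sets are descriptions, since the rule made the contrast. The sum in members was 376, 1814 and 1461 in UC 1 to 3, 1159 and 1584 in VC-T 2 and 3, 624.6, 886 and 3367 in VC-R 1 to 3, and 478, 551 and 410 in R 1 to 3. In the other late haploid cells it stayed between 15.4 and 29.1, so the sets did not overlap in any library. All 19 genes had a higher median in members, and 10 were higher in every one of the 11 libraries.

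The highest levels on this list in members were those of Cst12, Clu and Ctsl. Cst12, a cystatin-family gene, had a member median of 291 CPM against 4.05 in other late haploid cells and 1781 in low-sperm Sertoli-marker cells. Clu, the secreted chaperone clusterin, had 171, 2.43 and 1840 CPM in the same order, and Ctsl, a lysosomal protease that Sertoli cells also secrete, had 135, 2.91 and 1537 CPM. Amhr2, the receptor of anti-Müllerian hormone, had 64.3 CPM in members, and Inha, the inhibin alpha subunit, had 25.5 CPM. The Sertoli transcription factors were low but present: Wt1 had 7.02 CPM in members against 101 in low-sperm Sertoli-marker cells, and Sox9 had 3.51 against 76.6. Fshr, the receptor through which follicle-stimulating hormone acts on Sertoli cells, had 3.17 CPM in members against 0.0495 in other late haploid cells.

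**Figure D1:**
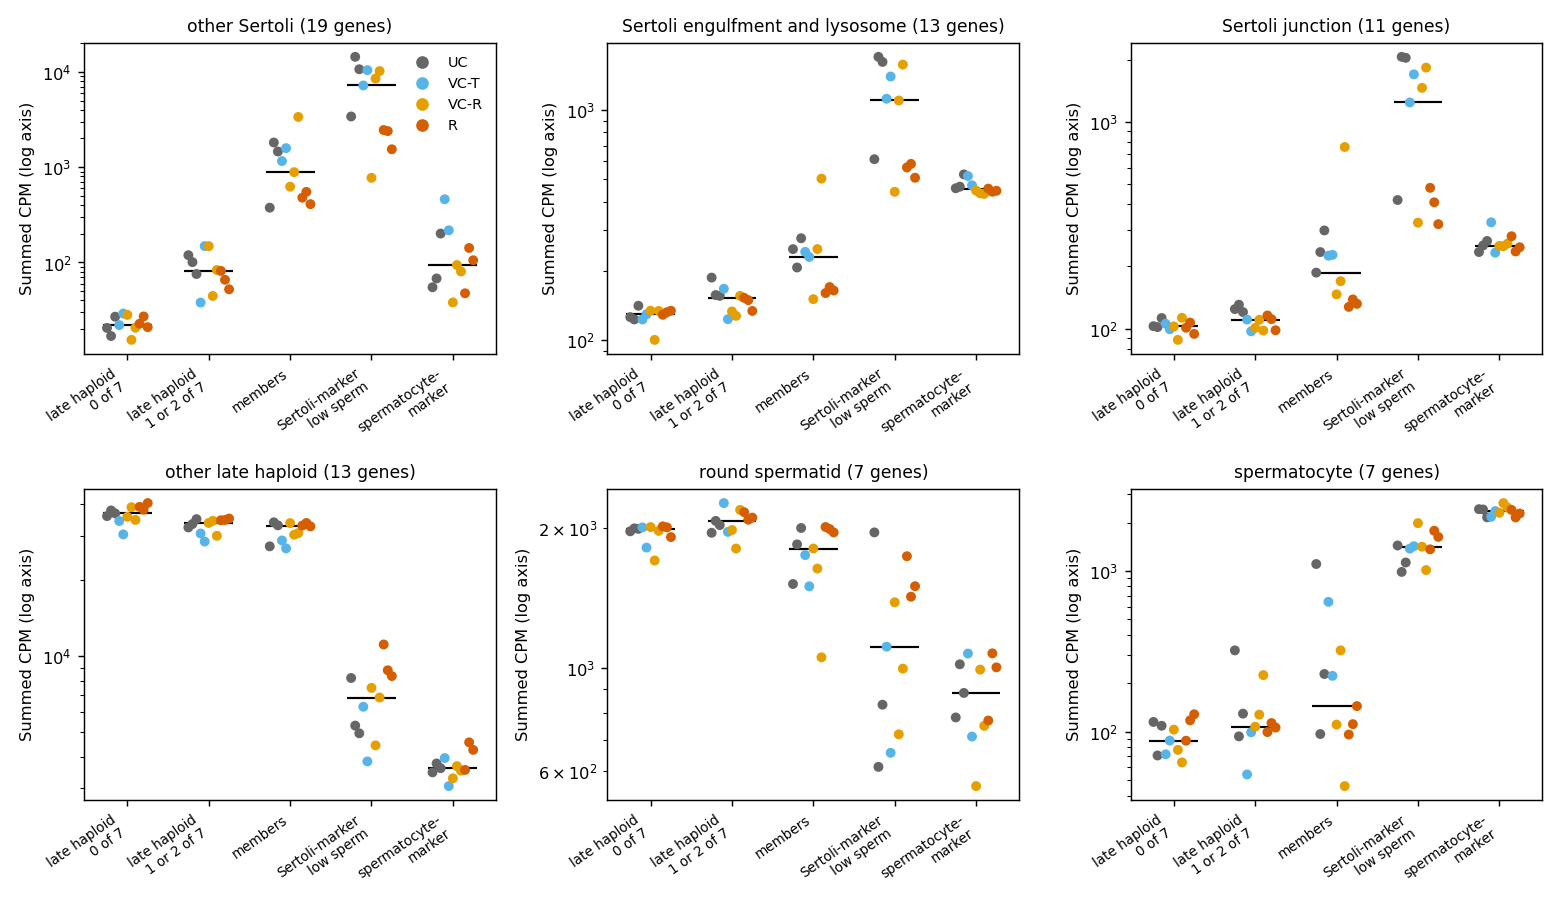
Summed CPM of 6 gene lists (log axis) in 5 sets of cells, with 1 point per library, coloured by group, and the median over 11 libraries as a line. On the other Sertoli list members lie between 376 and 3367 CPM, above every late haploid cell set with none of the 7 genes (15.4 to 29.1), and on the other late haploid list they lie near the late haploid cells.

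The members' late haploid genes stayed close to those of the other late haploid cells. A list of 13 other late haploid genes summed to 32761 CPM in members (26795 to 33992), 36871 in late haploid cells with none of the 7 genes and 6865 in low-sperm Sertoli-marker cells. Members were below the other late haploid cells in 11 of 11 libraries for this list, with a median ratio of 0.880. Smcp, a protein of the sperm mitochondrial capsule, had 8349 CPM in members against 9786, Gapdhs, the sperm form of a glycolytic enzyme, had 3443 against 4061, and Akap4, a fibrous sheath protein of the tail, had 1276 against 1480. Odf1, an outer dense fibre protein, went the other way, with 403 against 321 CPM and a higher value in 9 of 11 libraries. Round spermatid genes summed to 1805 CPM in members and 1989 in other late haploid cells. The values on both sides meet the label of late haploid cells that also carried Sertoli messages.

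The summed levels of the Sertoli cell's engulfment and junction genes were closer to those of other late haploid cells, which already expressed some of these genes, such as Lamp1 at 79.9 CPM and Nectin2 at 79.7 CPM. The list of 13 engulfment and lysosome genes summed to 230 CPM in members against 130 in other late haploid cells, higher in 11 of 11 libraries, and to 1102 in low-sperm Sertoli-marker cells, and 4 of its 13 genes were higher in members in every library. Psap, which encodes the precursor of lysosomal activator proteins, had 10.8 CPM in members against 146 in low-sperm Sertoli-marker cells, and Gas6, a bridge between dying cells and engulfment receptors, had 18.7 against 124. Mertk, the engulfment receptor that Gas6 binds, was at 0 by median in members, with 6 UMIs over all libraries. The list of 11 junction genes summed to 187 CPM in members against 103, higher in 11 of 11 libraries, with 3 of the 11 genes higher in every library and Nectin2 at a lower median (72.9 CPM) in members. Espn, the actin bundler of the Sertoli cell's junction with the spermatid head, had 39.6 against 1.42 CPM.

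The marker lists of other cell types varied between libraries. Spermatocyte genes summed to a median of 144 CPM in members (45.8 to 1103), higher than in other late haploid cells in 9 of 11 libraries. The highest sum was that of UC 1, where 1103 CPM of spermatocyte genes stood above the 376 CPM of the other Sertoli list, against 2421 CPM in the spermatocyte-marker cells of that library. The spermatogonial list summed to 59.5 CPM in members (40.7 to 183), higher in 11 of 11. Uchl1 supplied most of that sum, with 46.0 CPM in members, 15.2 in other late haploid cells and 177 in low-sperm Sertoli-marker cells, and only 2 of the 7 spermatogonial genes had a higher median in members, while Hells was at 0 against 1.34 CPM. Leydig genes summed to 27.0 CPM against 2.44, with 12.7 to 49.5 in R, 0 to 138 in UC, 0 to 27.0 in VC-R and 51.1 to 92.4 in VC-T. The steroidogenic enzyme Hsd3b1 and Star were at 0 by median. The macrophage list summed to 33.0 CPM in members against 38.0, nearly all of it C1qb (28.2 against 35.8 CPM, and 4.72 in low-sperm Sertoli-marker cells), while Lyz2 had 0.538 and C1qa 0.215 CPM. The macrophage genes Pf4 and Cd74 were at 0 by median. Endothelial genes summed to 2.87 against 2.501 CPM, with Pecam1 and Cdh5 at 0 by median. The low-sperm Sertoli-marker cells were mixed as well, since 510 of 3372 (15.1%) held at least 3 spermatocyte genes, and without these cells their other Sertoli list had a median of 12185 CPM.

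Over all genes, the members were set beside the other late haploid cells and the low-sperm Sertoli-marker cells. Of 2421 genes at 50 or more CPM in the higher set, 279 were higher in members than in other late haploid cells in every library and 115 were lower in every library. The largest median log2 ratios, leaving out the rule's genes, belonged to Cst12 (6.01), Ldhb (5.61), Gatm (5.57), 1700018G05Rik (5.53), Clu (5.44), Prdx2 (5.44) and Ctsl (5.42). Ldhb is a subunit of lactate dehydrogenase, Gatm makes the creatine precursor and Prdx2 is a peroxidase. The genes lower in every library differed by little, with Cmss1 at -0.67, St6galnac2 at -0.47 and Nbr1 at -0.46 the farthest. Set beside low-sperm Sertoli-marker cells, 815 of 4677 genes were higher in members in every library and 2286 lower, with Tmem151a at 5.04, Defb33 at 4.13 and Cyp2a12 at 4.12 among the highest. No gene was at least 2-fold higher than in both other sets in every library, and the count was 0 as well for 9 or more of the 11 libraries.

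Late haploid cells that held more of the rule's genes also held more of the other Sertoli genes. From 0 to 7 of the 7 genes, the other Sertoli list stood at a median over libraries of 0.220, 0.532, 2.30, 3.43, 5.22, 5.39, 8.62 and 15.2 UMIs per 10000. The mitochondrial share was higher at each step as well, at 0.0252%, 0.0354%, 0.186%, 0.389%, 0.983%, 1.11%, 1.31% and 1.94%, while the share of the 4 sperm genes went from 22.0% to 18.7%. Sets of fewer than 10 cells in a library were left out, so the last value rests on 5 libraries. The threshold did not mark a break in Sertoli message. The values beside each threshold pool cells over libraries, so they differ from the medians over libraries above. Just outside the threshold, the 1254 cells with exactly 2 genes had a median mitochondrial share of 0.139% and 1.16 other Sertoli UMIs per 10000. Just inside it, the 720 with exactly 3 had 0.298% and 2.05. On the other threshold, 142 Sertoli-marker cells at 8% to 10% of sperm genes had 13.9 other Sertoli UMIs per 10000 and 139 members at 10% to 12% had 13.2. Median depth was 3050 UMIs with 0 genes and 7878 with all 7, and its part in these steps was not tested.

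**Figure D2:**
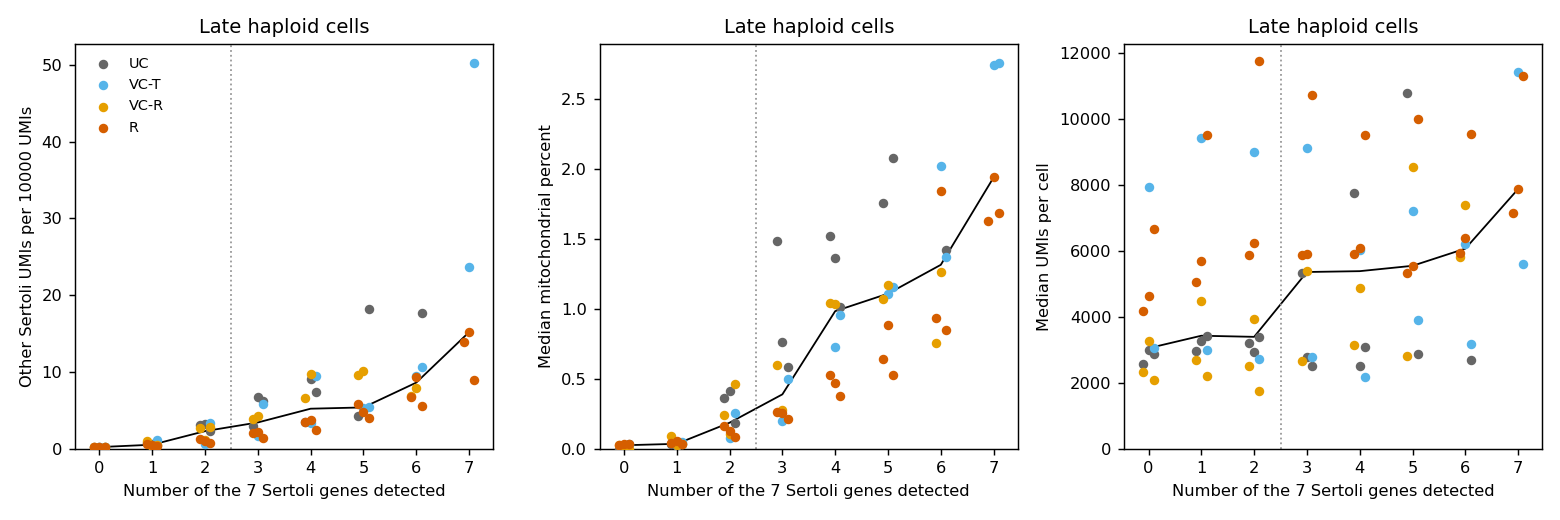
Late haploid cells by the number of the 7 Sertoli genes they held (horizontal axis), showing other Sertoli UMIs per 10000, median mitochondrial percent and median UMIs per cell, with 1 point per library with at least 10 such cells and the median over libraries as a line; the dotted line marks the rule's threshold of 3 genes. The other Sertoli median goes from 0.220 to 15.2 and the mitochondrial median from 0.0252% to 1.94%.

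The 7 genes were also counted in UMIs that the rule had not seen. Each cell's UMIs were divided at random into equal parts, the rule was applied to 1 part, and the 7 genes were counted in the part left out. Cells that met the rule in the first part carried 10.7 to 82.7 UMIs of the 7 genes per 10000 in the part left out, against 0.200 to 1.09 in late haploid cells with none. Between 84.6% and 100% of them held at least 1 such UMI. These cells were fewer than the members, with 26 in UC 1 beside 53 members and 453 in R 3 beside 709. Members with few Sertoli UMIs were thus less often included. The genes are those of the rule, so these values are a description.

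Members were more frequent in recovery testes than in UC and VC-R. They were 1.62%, 1.36% and 1.51% of kept barcodes in UC 1 to 3 (53, 42 and 67 members), 3.76%, 1.82% and 0.583% in VC-R 1 to 3 (190, 69 and 17) and 5.83%, 5.10% and 5.26% in R 1 to 3 (410, 394 and 709). All 3 R libraries stood above all 6 control libraries. The mean was 5.399% ± 0.385 (SD, n = 3) in R and 1.77% ± 1.06 (n = 6) in UC and VC-R together, a difference of 3.62 percentage points (exact two-sided permutation test, p = 0.0119, the smallest that 3 against 6 allows; 0.0476 after Benjamini-Hochberg adjustment over 8 such tests). Against VC-R alone the difference was 3.34 points and against UC alone 3.91, each with p = 0.100, the smallest that an exact permutation test of 3 against 3 can give. After every cell was thinned to 1000 UMIs, R held 1.29%, 1.07% and 0.928% and the controls 0.274% to 0.951%, so that VC-R 1 lay above R 3, and the difference was 0.532 points (exact permutation p = 0.0238).

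The difference was also present within late haploid cells, and it was present in spermatocyte-marker cells, a germ cell type used here to gauge the background of Sertoli genes. Members made up 2.65%, 2.06% and 2.70% of late haploid cells in UC, 6.18%, 2.96% and 1.06% in VC-R and 12.2%, 11.0% and 16.5% in R. The difference was 10.3 percentage points (13.2% ± 2.87 against 2.93% ± 1.73; exact permutation p = 0.0119, adjusted 0.0476). In spermatocyte-marker cells, 4.49%, 6.66% and 11.1% held at least 3 of them in R against 1.23% to 3.31% in the controls, a difference of 5.47 points (exact permutation p = 0.0119). Late haploid cells had a median depth of 2081 to 8173 UMIs by library and spermatocyte-marker cells 5697 to 11958. When each cell was thinned to 1000 UMIs, 2.71%, 2.32% and 2.89% of late haploid cells and 1.36%, 1.58% and 3.52% of spermatocyte-marker cells held at least 3 of the 7 genes in R. The UC and VC-R libraries had 0.449% to 1.56% and 0% to 1.24%. VC-T 2 and 3, which enter no test against R, had 2.79% and 2.39% of late haploid cells and 3.46% and 2.35% of spermatocyte-marker cells, and so lay in the range of R.

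After thinning, the share in late haploid cells was above that in spermatocyte-marker cells in the 11 libraries except UC 3, VC-T 2 and R 3. It was 2.71% against 1.36% in R 1 and 2.89% against 3.52% in R 3. The exact binomial 95% intervals of the thinned shares were apart in 1 of 11 libraries, VC-R 1, with 1.56% of late haploid cells against 0 of 1026 spermatocyte-marker cells. After the spermatocyte-marker share was subtracted, R had 0.488 ± 1.02 percentage points and the controls 0.392 ± 0.630, a difference of 0.0960 (exact permutation p = 0.845). A share at or below the spermatocyte-marker level is not read here as particular to late haploid cells. Whether the Sertoli UMIs of the spermatocyte-marker cells came from free RNA, attached material or doublets was not tested. Barcodes that failed the limits on genes, UMIs or mitochondrial share held 13.3 to 30.2 UMIs of the 7 genes per 10000 outside T and VC-T 1, where they held 1.64 to 5.63. The members themselves held 10.7 to 64.1 per 10000, and spermatocyte-marker cells 0.455 to 3.39.

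**Figure D3:**
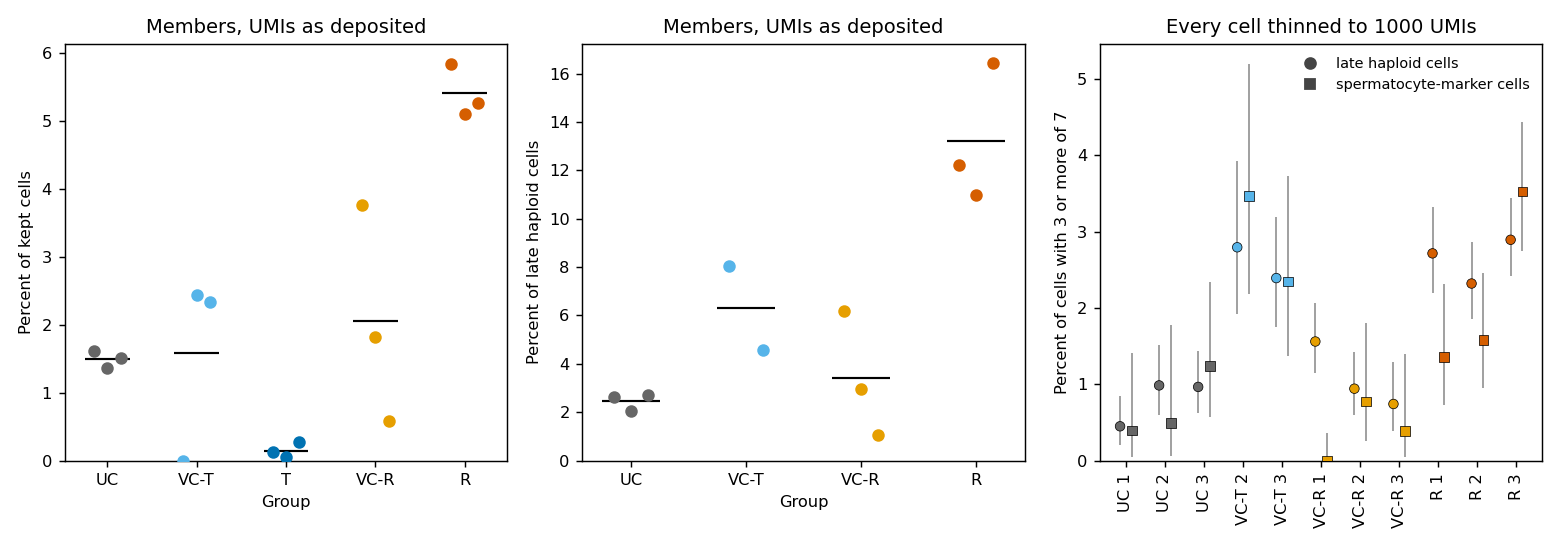
Members as a percent of kept barcodes and of late haploid cells by group (points are libraries, lines are group means), and, after thinning every cell to 1000 UMIs, the percent of late haploid cells (circles) and of spermatocyte-marker cells (squares) with at least 3 of the 7 genes, with exact binomial 95% intervals. R holds 5.10% to 5.83% of kept barcodes, above UC and VC-R. In the 11 libraries with at least 10 members, the intervals of circle and square overlap except in VC-R 1. T 1 to 3, with 11, 3 and 15 late haploid cells, and VC-T 1, with 1, are not drawn in the panels on late haploid cells. The thinned intervals of T 1 to 3, not drawn, were apart.

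Treated testes held few members and few late haploid cells. T 1 to 3 held 7, 2 and 7 members, which were 0.120%, 0.0501% and 0.272% of kept barcodes. Their late haploid cells numbered 11, 3 and 15, so members were 63.6%, 66.7% and 46.7% of these. The highest such share outside T was 16.5%, in R 3. VC-T 2 and 3 held 92 and 86 members (2.43% and 2.33%), while VC-T 1 held 0 of 5818, which allows up to 0.0516%, and 1 late haploid cell. VC-T 1 thus stood with the T libraries and against its vehicle label, and it was also set aside as an outlier in the study's methods. The mean was 0.147% ± 0.114 in T (n = 3) against 1.54% ± 0.875 in UC and VC-T (n = 6), a difference of -1.39 percentage points that did not pass (exact permutation p = 0.0833, adjusted 0.111). Without VC-T 1 the difference was -1.70 (exact permutation p = 0.0179). The 16 members of T were too few for a profile.

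As a share of Sertoli-marker cells, members made up 38.0% ± 9.98 in R (n = 3) and 46.6% ± 19.8 in the controls (n = 6), a difference of -8.59 points (exact permutation p = 0.548). The difference was -1.86 points without VC-R 1, and its sign turned with at least 20% of sperm genes. Sertoli-marker cells, the members included, numbered 885 of 7028, 969 of 7725 and 2634 of 13471 kept barcodes in R, against 93 of 3279, 90 of 3094 and 195 of 4446 in UC and 237 of 5049, 189 of 3788 and 69 of 2918 in VC-R. Both members and Sertoli-marker cells took a larger share of kept barcodes in R. More Sertoli cells and more Sertoli RNA per barcode cannot be told apart. Late haploid cells took a smaller share, at 3354 of 7028, 3585 of 7725 and 4308 of 13471 in R. They numbered 2002 of 3279, 2037 of 3094 and 2485 of 4446 in UC and 3074 of 5049, 2332 of 3788 and 1611 of 2918 in VC-R. The R libraries also held 9949, 10785 and 14221 barcodes before filtering, against 3407 to 6740 in UC and VC-R. Whether this bears on doublets or free RNA in R was not tested. Possible doublets were scored from simulated mixtures, and the top 5.4% of scores in each library were marked. The marked percent of cells was thus fixed in advance and cannot show whether a group held more doublets. Marking took in 273 members (12.7%). The marked share of members was 1.89%, 2.38% and 13.4% in UC, 50.0% and 15.1% in VC-T 2 and 3, 5.26%, 14.5% and 17.6% in VC-R and 8.05%, 6.09% and 17.2% in R, against 4.31% to 6.71% of late haploid cells with none of the 7 genes. It was below that of the late haploid cells of the same library in UC 1 and UC 2 and above it in the other 9 libraries. Between pairs of libraries, 0 to 31 kept barcodes were shared. Of the members' barcodes, 33 were also kept in another library, and none was a member in both.

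Members in recovery testes had the lowest mitochondrial share. The median share was 1.68%, 1.31% and 0.966% in UC, 0.708%, 1.11% and 1.98% in VC-R and 0.520%, 0.536% and 0.455% in R, so the groups did not overlap. The difference was -0.788 percentage points (0.504% ± 0.0429, n = 3, against 1.29% ± 0.470, n = 6; exact permutation p = 0.0357, adjusted 0.0714), which did not pass after adjustment. Late haploid cells with none of the 7 genes had 0% to 0.0374% and low-sperm Sertoli-marker cells 1.79% to 10.9%. Median UMIs per member were 6343, 2721 and 3031 in UC, 2930, 6032 and 2183 in VC-R and 5872, 6215 and 10063 in R, and here the groups overlapped (difference 3510 UMIs; exact permutation p = 0.0833, adjusted 0.111).

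The rule used the sum of Prm1, Prm2, Tnp1 and Tnp2, so their ratio is given here as a description, since the same UMIs chose the cells. The log2 ratio of Prm1 and Prm2 to Tnp1 and Tnp2 was 1.29, 1.07 and 1.16 in the members of UC, 1.090 and 1.103 in VC-T 2 and 3, 1.16, 1.37 and 1.45 in VC-R and 0.97, 1.08 and 0.98 in R. In late haploid cells with none of the 7 genes it was 0.95, 1.07 and 1.05, then 0.93 and 0.93, then 1.02, 1.38 and 1.00, and 1.19, 1.19 and 1.39 in R. Members were above the other late haploid cells in 6 of 11 libraries, with a mean difference of 0.06 (SD 0.243, n = 11). Members of R were below those of the 6 UC and VC-R libraries by 0.24 on average, with UC 2 inside the range of R. The offset of members from the other late haploid cells of the same library was negative in all 3 R libraries (-0.22, -0.11 and -0.41) and between -0.01 and 0.44 in the UC and VC-R libraries.

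**Figure D4:**
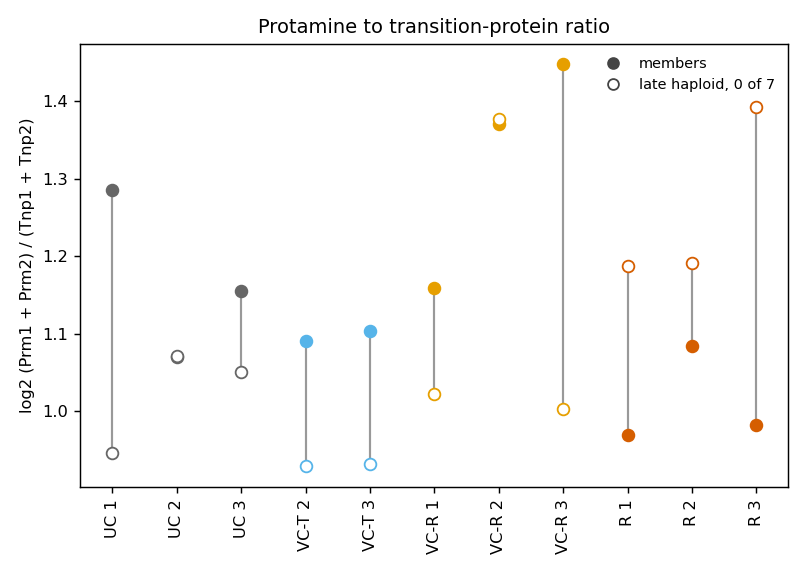
Log2 ratio of Prm1 plus Prm2 to Tnp1 plus Tnp2 UMIs in members (filled) and in late haploid cells with none of the 7 genes (open), joined within each of 11 libraries. Members are below the open points in R 1 to 3 (0.97, 1.08 and 0.98 against 1.19, 1.19 and 1.39) and level with or above them in UC, VC-T and VC-R, where the lowest offset is -0.01.

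Gene levels in the members were then compared between groups on UMIs summed per library, with edgeR's quasi-likelihood test and Benjamini-Hochberg adjustment. A gene was called where its adjusted p was below 0.05 and its log2 fold change beyond 1 in size. By library these sums were 43659 to 696477 UMIs in UC and VC-R, lowest in VC-R 3, and 2919859 to 9298148 in R. Control levels of low genes therefore rest on few UMIs, and an absence of calls does not show that the groups were alike. Between R and VC-R, the vehicle group of the same age, 0 of 5536 genes were called (0%), with 532 at unadjusted p under 0.05 and 0 called by DESeq2. Without VC-R 1 the count was 271. No gene of the fixed lists was called in this comparison, and the rule's own genes are given as levels only. Defb19 was at 427, 1518 and 1383 CPM in members of UC, 942, 656 and 3138 in VC-R and 692, 798 and 551 in R, and the control libraries spanned the R values.

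Between R and UC, 87 genes were called (1.57%), 8 higher in R (0.145%) and 79 lower (1.43%). The highest-ranked higher gene was 4930570D08Rik, at 217, 389 and 296 normalised CPM in UC, 940, 420 and 794 in VC-R and 949, 941 and 1044 in R (log2 fold change 1.75, SE 0.27, edgeR adjusted p = 0.0132). It was higher in the other late haploid cells as well, with a log2 fold change of 1.30. Tmsb15a, of the thymosin beta family that binds actin monomers, was at 168, 165 and 204 in UC and at 425, 405 and 440 in R (1.23, SE 0.25, edgeR adjusted p = 0.0256). The other 6 higher genes were Klk1 (1.48), 1700015H07Rik (1.41), Gm34662 (1.19), 1700020N15Rik (1.02), Gm6812 (1.01) and Gm10076 (1.01). In the other late haploid cells, Tmsb15a (0.79), Gm10076 (1.05), 1700020N15Rik (0.64), Gm34662 (0.57) and Gm6812 (0.57) were higher in R than in UC as well, at edgeR adjusted p-values of 1.91e-05 to 0.0186. For 4930570D08Rik, VC-R 1 and VC-R 3 sat nearer R and VC-R 2 nearer UC (R against VC-R log2 fold change 0.48, edgeR adjusted p = 0.512). Tmsb15a was at 416, 207 and 199 in VC-R, so VC-R 1 sat with R and VC-R 2 and VC-R 3 near UC.

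Among the genes lower in the members of R, Rif1, a regulator of replication timing and DNA repair, had the smallest adjusted p. It was at 77.5, 59.9 and 49.3 normalised CPM in UC, 9.64, 9.69 and 44.1 in VC-R and 9.03, 9.23 and 11.4 in R (log2 fold change -2.63, SE 0.32, edgeR adjusted p = 0.00276). In other late haploid cells Rif1 was at 3.80 to 8.77 in every library. The mitochondrial gene mt-Cytb, of respiratory complex III, was at 1904, 1264 and 1043 in UC and 449, 521 and 406 in R (-1.62, SE 0.23, edgeR adjusted p = 0.00948), and at 44.5 to 86.1 in the other late haploid cells. The remaining lower genes of the 12 with the smallest adjusted p were Hormad1 (-3.004), Pnisr (-2.83), Stk31 (-2.67), Tpr (-2.42), Hmgb2 (-2.41), H2afv (-2.11), Ncl (-2.01), Calr (-1.88), Sf3b1 (-1.82) and Atp6v0b (-1.56). Calr is a chaperone of the endoplasmic reticulum, Ncl a nucleolar protein, Sf3b1 a splicing factor and Hmgb2 a chromatin protein of germ cells.

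On the spermatocyte list, 3 of 5 genes tested were lower in R, against 1.43% of all genes tested, and none was higher. Sycp1, of the synaptonemal complex that joins homologous chromosomes, was at 372, 37.4 and 70.5 in UC, 41.8, 59.8 and 22.1 in VC-R and 25.95, 25.01 and 45.01 in R (-2.47), Sycp3 of the same complex had -2.45, and Hormad1, a chromosome axis protein, was at 150, 15.0 and 28.2 in UC and 7.90, 8.85 and 11.4 in R. UC 1 was the high library for all of them. Without UC 1, 1 gene was called between R and UC, and without R 1, R 2 or R 3 there were 2, 3 and 2. None of 9 other Sertoli genes tested, 5 engulfment and lysosome genes, 4 junction genes, 13 other late haploid genes or 7 round spermatid genes was called in either direction. The median log2 fold change was -0.94 over the other Sertoli genes tested and 0.06 over the other late haploid genes.

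**Figure D5:**
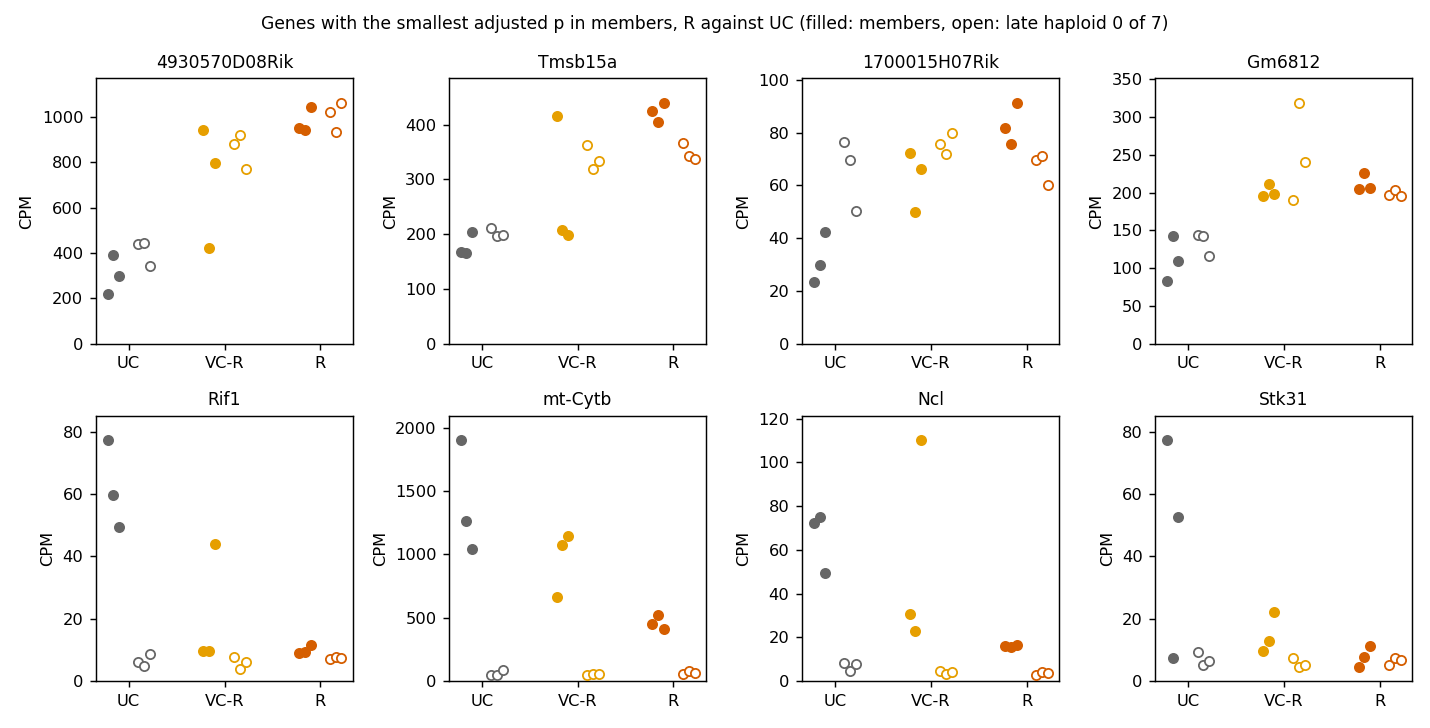
Normalised CPM per library in members (filled) and in late haploid cells with none of the 7 genes (open) of UC, VC-R and R, for the 4 genes of each direction with the smallest adjusted p between R and UC. Members of R are near the other late haploid cells for Rif1 (9.03 to 11.4 against 6.94 to 7.80), while members of UC are at 49.3 to 77.5.

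The last comparison asked whether R differed from the controls by another amount in members than in the other late haploid cells of the same libraries. The interaction was called for 591 of 12889 genes (4.59%), 105 toward higher in members of R (0.815%) and 486 toward lower (3.77%), by edgeR's quasi-likelihood test with the library as a block. The late haploid cells in this comparison were chosen for holding none of the 7 Sertoli genes, which leaves other Sertoli genes near 0 there, so no count is read from the Sertoli lists. Within members, Clu was at 28.4, 352 and 278 normalised CPM in members of UC, 64.3, 174 and 706 in VC-R and 64.3, 82.0 and 60.1 in R, so that UC 1 was below R and VC-R 1 level with it. The Sertoli, junction, and engulfment and lysosome lists had no call in members alone, between R and either control group. On the spermatocyte list 4 of 7 were called lower, and on the other late haploid and round spermatid lists none of 13 and none of 7 was called.

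Genes of red cells and macrophages were among the 12 genes with the smallest adjusted p in each direction of the interaction, a choice made after these values were seen. Hbb-bs, a beta globin of red cells, was at 49.4, 3.99 and 7.08 CPM in members of R and at 0 to 1.48 CPM in those of the controls. In the other late haploid cells it was at 70.1, 25.3 and 1.44 CPM in R, 19.2 in UC 1 and 77.5 in VC-R 1, so both sets of cells entered its log2 difference of 5.62. Igfbp7 (-3.14) was highest in VC-R 2, with 157 CPM in members against 16.2 to 29.5 in those of the other controls. In R it was at 7.41, 14.5 and 5.09 CPM, below every control library. Lyz2, a lysozyme of macrophages, rested on UC 1, with 32 UMIs. A germ-cell example without overlap between R and the controls was 4930528P14Rik (1.32, SE 0.27). It was at 86.1, 94.0 and 91.8 CPM in members of R and 20.8 to 53.1 in those of the controls. The control values rested on few UMIs, from 2 in VC-R 3 to 36 in VC-R 1. The other late haploid cells stood at 82.7 to 107 in all 9 libraries. Members of R were thus nearer to the other late haploid cells for that gene. The count of calls ranged from 24 without R 2 to 1490 without VC-R 1, and 179 without UC 1.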

How the data were processed

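The deposited files held raw UMI counts per gene and barcode, 1 matrix for each of 15 libraries, which the authors made with Cell Ranger (3.0.0 in the submitters' processing notes, 7.0.0 in the file headers) on mm10. Whether intronic reads were counted is not given in the sources used here. The study's own later corrections for free RNA and doublets are not in these counts. The files held 101610 barcodes and 32285 features, and total UMIs per library ran from 9673587 to 98724982. Barcodes were kept at 500 or more genes, 1000 or more UMIs and under 30% mitochondrial UMIs.

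Members and gene lists were chosen with earlier results of these data known. Sets with under 10 cells in a library were left out. Counts of a set were summed per library and compared between R, VC-R and UC with edgeR 4.0.16 (quasi-likelihood test, TMM, filterByExpr, Benjamini-Hochberg over all genes tested, called at adjusted p under 0.05 and absolute log2 over 1) in R 4.3.3. The interaction was fitted with the library as a block. Ratios between sets used CPM with a pseudocount of 1. Single values per library were compared with exact two-sided permutation tests, 8 adjusted together, of which the pair on the protamine to transition-protein ratio is not used as evidence because its genes chose the cells. Intervals are exact binomial (Clopper-Pearson) at 95% and, like the limit of 3 counts for a share of 0, cover counting error only. Doublets were scored with Scrublet in scanpy 1.11.5, and positions come from GENCODE for GRCm38.

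Genes were named as those of the rule and the fixed lists, the 12 called genes with the smallest adjusted p in each direction, and the 12 with the largest ratio of 1 sign in every library, leaving out the rule's genes. The edgeR steps were tested on simulated data with 4873 to 5174 genes. Of genes changed by 1.5 on the log2 scale, 94%, 87% and 68% were recovered for R against VC-R, R against UC and the interaction. False calls numbered 6, 11 and 7 in the same order. The interaction was simulated on 5174 genes, fewer than the 12889 tested in the data. The simulated counts had the same spread for every gene and no outlying library, and changed genes were drawn only from those with more UMIs. The rates of recovery and false calls therefore check the steps and do not give the rates in the data. Alternatives were DESeq2 1.42.0, its size factors, no filter, at most 50 cells a library, stricter thresholds, thinning, no doublets, each control group alone, a replicate block and leaving out each library.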

Additional observations from a re-analysis of the deposited data

Results flagged for a closer look

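Among the 6 UC and VC-R libraries, VC-R 1 stood apart in the share of late haploid cells that were members, at 6.18%, where its gap to the nearest library was 0.629 of the whole range against a critical value of 0.625. Chance marks about 1 in 20 such groups, and 9 measures were examined in this way, of which this was the only one past its critical value. The share of kept barcodes of the same library did not pass (0.610). Members of VC-R 1 had 942 CPM of Defb19 and a median of 2930 UMIs, both within the range of the other controls.

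The difference between R and the controls was of another size in members than in late haploid cells with none of the 7 genes for 591 genes by edgeR's interaction test. Sertoli genes among them were near 0 in the comparison cells, which were chosen for holding none of the 7 genes.

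The offset of members from other late haploid cells in the log2 ratio of protamine to transition-protein message was lower in R than in the controls by 0.41, that is -0.41 on the log2 scale, with no overlap between 3 R and 6 control libraries, which is what drew attention to it. It was noticed after the values were seen and uses the genes whose sum chose the cells, so it is a description. Over all 11 libraries the mean offset was 0.06, and its relation to the lower mitochondrial share of members in R was not tested.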

How the results depend on the processing

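The higher member share in R kept its sign under every alternative run. For the share of kept barcodes it was 3.34 points against VC-R alone and 3.91 against UC alone (exact permutation p = 0.100 each, the smallest possible), 0.532 with every cell thinned to 1000 UMIs (exact permutation p = 0.0238) and 3.39 to 4.02 leaving out 1 library. For the share of late haploid cells it was 9.83 and 10.8 points in the same order (p = 0.100, exact permutation), 8.67 to 11.4 leaving out 1 library, 1.70 after thinning (exact permutation p = 0.0119), and 0.0960 after subtracting the spermatocyte-marker share of cells thinned to 1000 UMIs (exact permutation p = 0.845), an alternative chosen after seeing the data. The T difference ran from -1.70 (without VC-T 1) to -1.22, the median UMI difference from 2170 to 4266 (4004 without UC 1, with an unadjusted exact permutation p = 0.0357), the mitochondrial difference from -0.905 to -0.650 and the ratio difference from -0.27 to -0.20. The mitochondrial difference was -0.837 with at least 4 of 7 genes (exact permutation p = 0.0595). The share of Sertoli-marker cells turned from -8.59 to 0.458 points with at least 20% of sperm genes and ran from -13.0 to -1.86 leaving out 1 library. The cause of these shifts was not tested.

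Counts of calls moved as well. Between R and UC, 87 genes became 45 with DESeq2, 47 with its size factors, 453 with no filter, 17 with at most 50 members a library, 18 with at least 4 of 7 genes, 17 with at least 20% of sperm genes, 44 without VC-R 3 and UC 1 (chosen after seeing the data) and 1 to 301 leaving out 1 library. Between R and VC-R, 0 became 85 with no filter, 10 with at most 50 members, 5 with at least 20% of sperm genes and 0 to 271 leaving out 1 library. For the interaction, 591 became 53 with at most 50 cells and 24 to 1490 leaving out 1 library. No named gene reversed: 192 repeats between R and UC kept the call and 146 lost it, against 205 and 68 for the interaction.

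The labels give the groups the same replicate numbers, but same-numbered libraries did not deviate together (correlations -0.23 to 0.13). With a replicate block the pairing against VC-R gave 3.34 and 9.83 points (exact permutation p = 0.250, the smallest possible) and 3 calls between R and UC.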

Other observations

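Late haploid cells with 1 or 2 of the 7 Sertoli genes, 5122 in number, stood between the members and the 20575 late haploid cells with none. Their other Sertoli list had a median of 81.4 CPM over 11 libraries, against 22.0 and 886.

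In the other late haploid cells themselves, 0 genes were called between R and VC-R and 32 of 11950 between R and UC, all higher in R, by edgeR's quasi-likelihood test.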
